A study of Homo sapiens with 12 samples.

Results

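The 10 genes described here build and tie together actin filaments: the tropomyosins TPM1, TPM2, TPM3 and TPM4, the Ena/VASP proteins ENAH, VASP and EVL, the alpha-actinins ACTN1 and ACTN4, and transgelin 2 (TAGLN2). They were chosen by name and taken by symbol from the 19225 entries of the count table, and all 10 were present. The set was selected on the higher TPM4 counts of every FAT1 knockdown group against NC, and because the cytoplasmic tail of FAT1 binds Ena/VASP proteins. The rise of TPM4 over the control is therefore given as a description, with no test.

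The RNA came from HN6 and HN30, established cell lines of oral squamous cell carcinoma (OSCC). Cells of each line were transfected with 1 of 3 small interfering RNAs: a scrambled negative control (NC), siFAT1-1 or siFAT1-2. All groups, NC included, received a siRNA with the reagent Lipofectamine RNAiMAX, and poly(A) RNA was sequenced 24 h later. Each of the 6 groups held 2 libraries, made by repeating the experiment at a separate time, which gave 4 NC and 8 knockdown libraries. The knockdown is partial, as the FAT1 values below show, and in bulk RNA a shift in the kinds of cells present and a shift in RNA per cell cannot be told apart. Total counts ran from 26430049 to 47639010 a library. Of 8 squamous epithelial markers, 7 were above 1 CPM (read counts scaled to library size, in counts per 1000000) in all 12 libraries, and KRT14 was at 2.42 CPM or less. Of 14 markers of muscle, fibroblasts, leukocytes and endothelium, 6 stayed below 1 CPM in every library and 3 (ACTA2, COL1A1 and CD14) were above 1 CPM in all of them. The summed level of the 6 smooth muscle and fibroblast markers ran from 25.9 to 82.7 CPM in the NC libraries. In the knockdown libraries it ran from 58.1 to 157 CPM, and 7 of 8 were above both NC libraries of their line. This sum rests mainly on COL1A1 (11.1 to 146 CPM over all libraries) and ACTA2 (5.01 to 57.0 CPM). PDGFRB reached 9.36 CPM, and MYH11, CNN1 and DES were at 2.39 CPM or less. Of these markers, ACTA2 was below NC in HN6 with siFAT1-2 (5.01 and 6.26 against 9.76 and 11.7 CPM) and above NC in the other knockdown groups. For leukocyte markers, 3 of 8 knockdown libraries were above and 3 below both NC libraries. The counts were 4 and 2 for endothelial markers, 2 and 1 for skeletal or cardiac muscle, and 4 and 3 for squamous markers. The summed level of the squamous markers was higher in each siFAT1-1 library than in each siFAT1-2 library of its line (3534 to 5042 CPM against 1532 to 2843 CPM). The part of any of these sums in the results was not tested.

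The repeats of some groups were far apart. Between the 2 NC libraries of HN6, 23.4% of the genes tested differed by more than 2-fold, against 4.34% to 19.2% in the other 5 groups. These 2 libraries correlated less with each other (Pearson r = 0.944 on log2 CPM, across genes) than either did with the siFAT1-1 libraries of that line (r from 0.966 to 0.970). Without the second NC library of HN6, the 3 calls of members for siFAT1-2 against NC and the 5 between the siRNAs, given below, remained.

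Tropomyosins are coiled-coil dimers that lie along the groove of the actin filament and decide which other proteins reach it. TPM1 and TPM2 isoforms are prominent in stress fibers and muscle, TPM3 gives short isoforms in most cells, and TPM4 marks contractile filaments such as transverse arcs. Ena/VASP proteins sit at the growing ends of filaments, hold off capping proteins and feed in actin bound to profilin. Alpha-actinins cross-link filaments into bundles and link them to adhesions, and transgelin 2 is a calponin-like protein that stabilizes filaments. FAT1 is a large cadherin-family receptor found at cell edges and junctions, where its tail recruits actin regulators.

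On GRCh38 (GENCODE 44), the 4 tropomyosin genes lie apart. TPM1 (ENSG00000140416) is on chr15:63042620-63071915, plus strand. TPM2 (ENSG00000198467) is on chr9:35681992-35690056, minus strand. TPM3 (ENSG00000143549) is on chr1:154155308-154194648, minus strand. TPM4 (ENSG00000167460) is on chr19:16067021-16103002, plus strand. Pseudogene copies are annotated for some of the 10 genes, 9 for TPM3, 3 for TPM4, 2 for ACTN4 and 1 each for TPM2, ENAH and TAGLN2. Reads that match a copy could be lost or assigned to it, so levels of TPM3 and TPM4 in particular carry this uncertainty. The only protein-coding neighbours that overlap are DEGS2 at EVL and CAPN12 at ACTN4, both on the opposite strand.

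The CArG box, the binding motif of serum response factor (SRF), drives many actin and muscle genes. It was searched in windows from 250 bases before to 50 bases after the RefSeq start of each gene (GRCh38.p14). The motif equals its own reverse complement, so 1 search covers both strands. Of the 10 genes, TPM4 alone held one, against 351 of 27305 promoters in all (1.29%) and 9 of 93 promoters of the actin cytoskeleton genes listed further on (9.68%). The listed genes with a box were CNN2, FLNA, SRF, ACTG1, MYLK, ROCK2, ACTA1, ACTC1 and ACTG2. The box of TPM4 is shown beside those of CNN2, FLNA and SRF, which were picked after their values were seen, as the 3 that were called between the siRNAs. Of the other 6, ACTG1, MYLK, ROCK2 and ACTA1 were not called (edgeR adjusted p from 0.0973 to 0.807), and ACTC1 and ACTG2 were too low to test. Between the siRNAs 17.0% of all genes tested and 26.8% of the 97 listed genes tested were called. The box is in capitals:

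TPM4, chr19:16067355-16067384, plus strand: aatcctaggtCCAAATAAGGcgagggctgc
CNN2, chr19:1026509-1026538, plus strand: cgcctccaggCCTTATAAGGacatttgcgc
FLNA, chrX:154374709-154374738, minus strand: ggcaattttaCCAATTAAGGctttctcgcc
SRF, chr6:43171229-43171258, plus strand: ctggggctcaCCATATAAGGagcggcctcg

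The first base of the box was at -173 from the start in TPM4, at -89 in CNN2, at -94 in FLNA and at -30 in SRF, whose window held 2 boxes. In GENCODE 44 the TPM4 box lies in no exon of the gene, and 1 of its 35 transcripts spans it as intron. A match of letters is a description and does not show that a factor binds there.

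The sequences of the siRNAs also bear on these genes, since a siRNA can pair with other transcripts through bases 2 to 8 of its guide strand, the seed. The letters that pair with the seed are TCGAGCA for siFAT1-1, GTCGACA for siFAT1-2 and TGTCACG for NC, and they were searched on the sense strand in the 3′UTR of 1 transcript a gene. siFAT1-1 had no match in the 10 genes. siFAT1-2 had a match in TPM4 alone, and NC in ENAH alone, shown with the match in capitals:

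TPM4, chr19:16102305-16102331, plus strand, siFAT1-2: ctccagcctgGTCGACAgagtgagact
ENAH, chr1:225494681-225494707, minus strand, NC: aaagtttacaTGTCACGtcactattct

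The TPM4 match starts at base 969 of a 3′UTR of 1656 bases, and the ENAH match at base 3078 of 10946. Among 13926 3′UTRs of tested genes, 1.37% held the siFAT1-1 letters, 0.768% the siFAT1-2 letters and 2.89% the NC letters. Among 3′UTRs within 20% of the same length, 0.853% held the siFAT1-2 letters and 11% the NC letters. Whether either match changed a level was not tested.

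FAT1, the targeted gene, was checked first. In HN6 it was at 56.8 and 66.7 CPM with NC, at 7.61 and 13.5 CPM with siFAT1-1 and at 13.2 and 21.4 CPM with siFAT1-2. In HN30 the levels were 13.6 and 14.7 CPM with NC, 4.86 and 6.25 CPM with siFAT1-1 and 10.8 and 7.75 CPM with siFAT1-2. The 8 knockdown libraries all had less FAT1 than either NC library of the same line, and 5.37% of genes tested had all 8 on one side. The mean left after knockdown was 17.1% and 28.0% of NC in HN6 and 39.2% and 65.4% of NC in HN30, for siFAT1-1 and siFAT1-2 in that order. The HN30 libraries with NC lay within the range of the HN6 knockdown libraries. FAT1 fell by 1.59 on the log2 scale over all libraries (SE 0.308, edgeR adjusted p = 0.041).

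TPM4 is the member the set was built around. In HN6 it was at 236 and 215 CPM with NC, at 1108 and 1057 CPM with siFAT1-1 and at 562 and 611 CPM with siFAT1-2. The HN30 libraries held it at 143 and 153 CPM with NC, at 1318 and 1250 CPM with siFAT1-1 and at 597 and 626 CPM with siFAT1-2. In each of the 8 knockdown libraries it was above the NC libraries of the same line, as 2.26% of the 14105 genes tested were. The mean was 4.802 times NC with siFAT1-1 and 2.60 times with siFAT1-2 in HN6, and 8.67 and 4.13 times NC in HN30. The groups of 2 libraries did not overlap: within a line the order was NC, siFAT1-2, siFAT1-1. These values chose the set and have no test here.

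**Figure D1:**
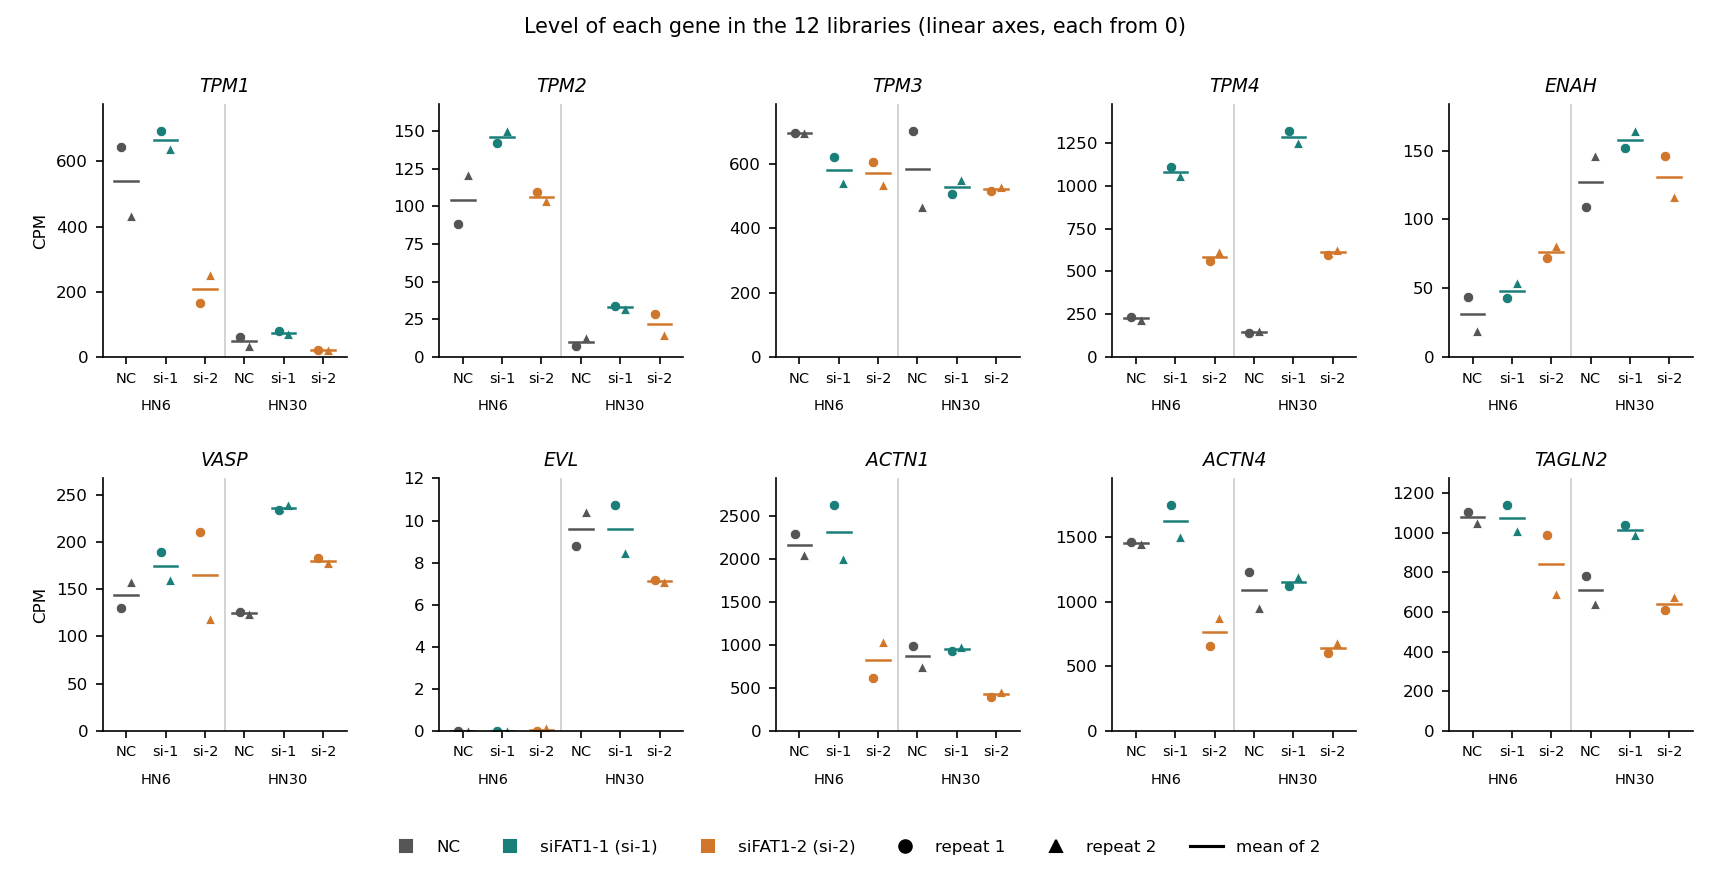
Level of each of the 10 genes in CPM (linear axes from 0) in the 12 libraries, by line and siRNA. Points are libraries (circles repeat 1, triangles repeat 2) and bars the mean of 2; TPM4 separates the 3 siRNAs in both lines, while TPM1, ACTN1 and ACTN4 are low with siFAT1-2 alone and EVL is near 0 in HN6.

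The levels of FAT1 and TPM4 were then set side by side in each library. HN30 cells with NC had FAT1 at 13.6 and 14.7 CPM and TPM4 at 143 and 153 CPM. One siFAT1-1 library of HN6 had FAT1 at 13.5 CPM and TPM4 at 1057 CPM, and one siFAT1-2 library of HN6 had FAT1 at 13.2 CPM and TPM4 at 562 CPM. These like levels of FAT1 come from different lines, and within a line no knockdown library had as much FAT1 as an NC library. Over the 12 libraries the Pearson r of FAT1 with TPM4 was -0.84 on log2 CPM centred on the mean of each line and -0.66 without centring. This r is a description, since the libraries fall into groups that share a siRNA.

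**Figure D2:**
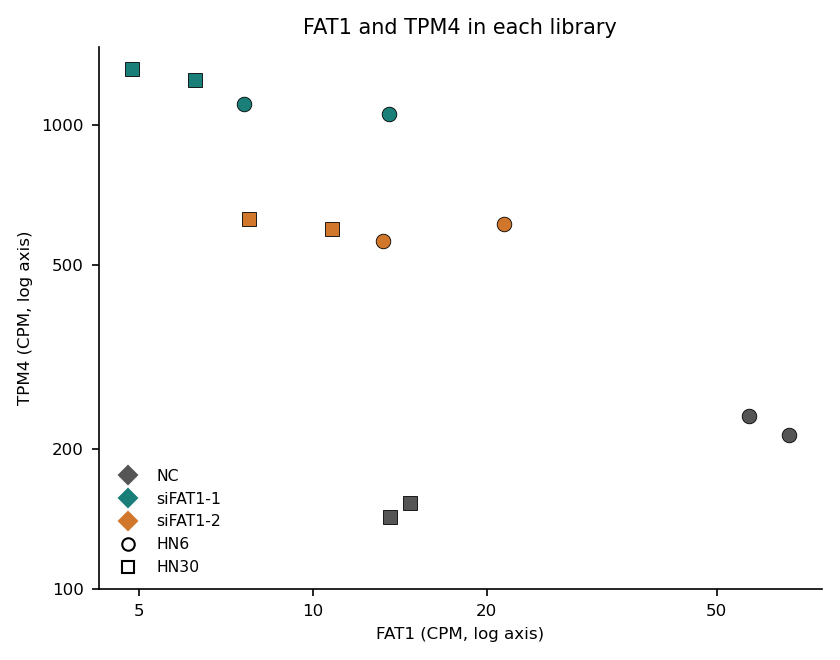
FAT1 (x axis) against TPM4 (y axis) in CPM, both on log axes, 1 point a library, coloured by siRNA with circles for HN6 and squares for HN30. The points form bands by siRNA: TPM4 is at 143 to 236 CPM with NC, 562 to 626 CPM with siFAT1-2 and 1057 to 1318 CPM with siFAT1-1, at FAT1 levels that overlap across the lines; within each line FAT1 of the NC libraries is above that of all knockdown libraries.

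The difference between the siRNAs is not a contrast with NC and was tested. The NC libraries still enter the scaling and the spread of that fit. The knockdown values of TPM4 are also part of the rise that chose the set. TPM4 was higher with siFAT1-1 than with siFAT1-2 by 0.99 on the log2 scale (SE 0.169, edgeR adjusted p = 0.00357). This call remained in the 18 alternative settings that were run. A difference of TPM4 between the lines was not shown, at -0.10 for HN30 against HN6 on the log2 scale (SE 0.138, edgeR adjusted p = 0.564), with an interval of 2 SE on either side from -0.37 to 0.18. In the NC libraries alone TPM4 was lower in each HN30 library than in both of HN6, at -0.59 on the log2 scale (edgeR adjusted p = 0.138). The rise after knockdown differed between the lines by 0.79 in log2 units, higher in HN30 (SE 0.535). It rests on the rise that chose the set and is given as a description. The interval of that difference, from -0.28 to 1.86, was wide.

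The other tropomyosins were compared next, to see whether the family moved with TPM4. Over all knockdown libraries against NC, 0 of the 9 members with a test passed an edgeR adjusted p under 0.05, beside 0.532% of the 14105 genes tested. Counts at an unadjusted p under 0.05 were 3 members (TPM2, ENAH and VASP), beside 14.4% of all genes. The median log2 change of the 9 members was 0.02, and that of all genes tested was 0.02 as well.

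TPM2, which pairs with TPM1 in muscle and stress fibers, came nearest. In HN6 it was at 88.1 and 121 CPM with NC, at 142 and 150 CPM with siFAT1-1 and at 110 and 103 CPM with siFAT1-2. HN30 had it at 6.99 and 12.3 CPM with NC, at 33.7 and 32.1 CPM with siFAT1-1 and at 28.4 and 14.9 CPM with siFAT1-2. Of the 8 knockdown libraries, 6 were above NC, and the 2 siFAT1-2 libraries of HN6 lay between their NC libraries. The change over all libraries was 0.84 on the log2 scale (SE 0.302, edgeR adjusted p = 0.233). Within HN30 alone it was 1.497 (SE 0.415, edgeR adjusted p = 0.415), and within HN6 it was 0.30 (SE 0.259, edgeR adjusted p = 0.818). The interaction of line and knockdown was 1.23 (SE 0.488, edgeR adjusted p = 1.00). Within each line and for the interaction edgeR called no gene at all (0%), and at an unadjusted p under 0.05 it had 779 genes in HN6 (5.72%), 1265 in HN30 (9.30%) and 317 for the interaction (2.21%). The DESeq2 test called 68, 201 and 0 genes in these fits, among them TPM2 in HN30 (adjusted p = 0.0328).

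TPM3, the source of short isoforms in most cells, was at 694 and 694 CPM with NC, 621 and 540 CPM with siFAT1-1 and 604 and 535 CPM with siFAT1-2 in HN6. In HN30 it was at 700 and 465 CPM with NC, 505 and 550 CPM with siFAT1-1 and 516 and 527 CPM with siFAT1-2. All 4 knockdown libraries of HN6 lay below both NC libraries, and all 4 of HN30 lay between them. The change was -0.21 on the log2 scale (SE 0.130, edgeR adjusted p = 0.481), with an interval of 2 SE from -0.47 to 0.05.

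TPM1, the striated and smooth muscle tropomyosin that also gives stress fiber isoforms, moved apart with the 2 siRNAs. In HN6 it was at 644 and 434 CPM with NC, at 692 and 638 CPM with siFAT1-1 and at 165 and 252 CPM with siFAT1-2. In HN30 the levels were 61.4 and 33.7 CPM with NC, 78.3 and 70.6 CPM with siFAT1-1 and 21.0 and 20.3 CPM with siFAT1-2. All 4 siFAT1-2 libraries were lower than NC in their line, and 3 of the 4 siFAT1-1 libraries were above both NC libraries. Pooled over siRNAs the change was -0.15 on the log2 scale (SE 0.446, edgeR adjusted p = 0.901).

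The levels can also be read as shares of the family, with CPM divided by the joined exon length of each gene. In HN6, TPM4 made up 13.6% ± 0.50 (SD, n = 2) of the tropomyosin level per kb with NC, 40.3% ± 0.064 with siFAT1-1 and 35.7% ± 1.48 with siFAT1-2. In HN30 it made up 21.6% ± 5.05, 67.4% ± 1.43 and 53.7% ± 2.31. TPM3 went from 34.4% with NC to 17.7% and 28.4% in HN6, and from 67.2% to 22.6% and 37.4% in HN30. The shares add to a whole, so the higher share of TPM4 lowers the others by construction. These shares use the rise of TPM4 that chose the set and are a description.

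The summed level of the 4 genes per kb was set against NC in the same way, also as a description. With siFAT1-1 the total was 1.63 times NC in HN6 (217 against 134 CPM per kb) and 2.72 times in HN30 (154 against 56.7 CPM per kb). With siFAT1-2 it was 0.994 times NC in HN6 (133 CPM per kb) and 1.62 times in HN30 (92.1 CPM per kb). In HN6 with siFAT1-2 the total stayed within the range of the NC libraries, with TPM1 lower and TPM4 higher. With the length of the longest annotated coding transcript in place of the joined exons, the TPM4 share ran from 18.4% and 32.3% with NC to 48.3% and 77.3% with siFAT1-1.

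**Figure D3:**
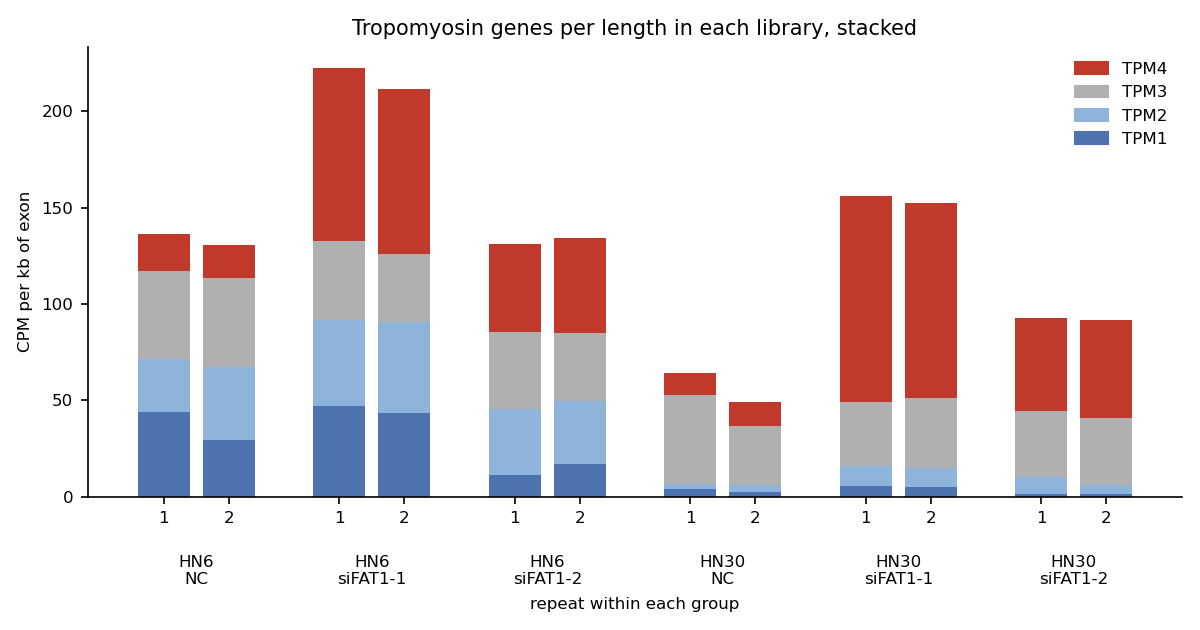
Stacked level of TPM1, TPM2, TPM3 and TPM4 in CPM per kb of exon in each of the 12 libraries, with the repeat number under each bar and the group below. TPM4 takes 13.6% of the bar in HN6 and 21.6% in HN30 with NC, and 40.3% and 67.4% with siFAT1-1.

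A ratio of 2 paralogues within a library does not depend on the scaling between libraries, and 5 such ratios without TPM4 were tested by exact permutation within lines. The ratio of TPM2 to TPM3 was higher after knockdown by 1.08 on the log2 scale, which is 2.11-fold. It was above both NC libraries of the line in 8 of 8 knockdown libraries, the same separation that the exact test reads. How often ratios of other gene pairs separate in this way was not counted. The two-sided exact permutation p was 0.004444, the smallest that the 225 arrangements can give, and 0.0222 after adjustment over the 5 ratios. Pairing the libraries by repeat ended this call, with an adjusted exact p of 0.0617, the smallest that the 81 paired arrangements allow. TPM1 to TPM3 differed by -0.17, ENAH to VASP by 0.16 and ACTN4 to ACTN1 by 0.19, and none passed, with adjusted exact p of 0.858, 0.858 and 0.411. The fifth ratio, EVL to VASP, counts in the adjustment but is void over both lines, since 5 of the 6 HN6 libraries had no EVL counts. With any 1 of the 4 NC libraries left out the smallest adjusted p possible is 0.0667, and with a knockdown library left out the call remained in 5 of 8 settings, with an adjusted p of 0.0667 without either siFAT1-1 library of HN30 or its first siFAT1-2 library.

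None of the Ena/VASP genes was called over all libraries. VASP, a substrate of cyclic nucleotide kinases found in adhesions and leading edges, was at 131 and 158 CPM with NC, 189 and 159 CPM with siFAT1-1 and 210 and 119 CPM with siFAT1-2 in HN6. The HN30 libraries held it at 126 and 124 CPM with NC, 234 and 239 CPM with siFAT1-1 and 183 and 178 CPM with siFAT1-2. The repeats of HN30 were close, with VASP lowest with NC and highest with siFAT1-1. The share of all genes with that order in 1 line was not counted. In HN6 one siFAT1-2 library lay above and the other below both NC libraries. The change over all libraries was 0.48 on the log2 scale (SE 0.184, edgeR adjusted p = 0.260). Within HN30 it was 0.73 (SE 0.217, edgeR adjusted p = 0.437), and the interaction was 0.50 (SE 0.347, edgeR adjusted p = 1.00).

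ENAH, also called Mena, was at 43.3 and 19.1 CPM with NC, 42.7 and 53.6 CPM with siFAT1-1 and 71.9 and 80.5 CPM with siFAT1-2 in HN6. HN30 had it at 109 and 146 CPM with NC, 152 and 164 CPM with siFAT1-1 and 146 and 116 CPM with siFAT1-2. Of the 8 knockdown libraries 6 lay above both NC libraries and none below, but the NC libraries of HN6 differed from each other by more than 2-fold. The change over all libraries was 0.57 on the log2 scale (SE 0.263, edgeR adjusted p = 0.347). Within HN6 it was 1.02 (SE 0.429, edgeR adjusted p = 0.814). Without the second NC library of HN6 these changes were 0.30 and 0.54, and without the first they were 0.65 and 1.74, none called (edgeR adjusted p from 0.245 to 1.00). ENAH is also the gene with the NC seed match shown above, and a part of that match in these values was not tested.

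EVL, the family member best known from blood cells, had no counts in 5 of the 6 HN6 libraries, and the other, with siFAT1-2, held 4 counts. A count of 0 allows up to 3 counts, which is 0.0679 to 0.102 CPM in those libraries. In HN30 it was at 8.80 and 10.4 CPM with NC, 10.7 and 8.44 CPM with siFAT1-1 and 7.19 and 7.08 CPM with siFAT1-2. Both siFAT1-2 libraries lay below both NC libraries. The change after knockdown within HN30 was -0.20 on the log2 scale (SE 0.295, edgeR adjusted p = 0.869). In HN30 the mean log2 ratio of EVL to VASP was -3.71 with NC, -4.63 with siFAT1-1 and -4.66 with siFAT1-2, given as a description. Ratios and changes of EVL in HN6 rest on the pseudocount and are not read.

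With NC the alpha-actinins and transgelin 2 were the most abundant of the 10 genes per length in both lines. ACTN1, which bundles filaments at adhesions, was at 2288 and 2043 CPM with NC, 2628 and 2003 CPM with siFAT1-1 and 612 and 1033 CPM with siFAT1-2 in HN6. In HN30 the levels were 989 and 743 CPM with NC, 926 and 976 CPM with siFAT1-1 and 397 and 451 CPM with siFAT1-2. The siFAT1-2 libraries lay below all others of their line.

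ACTN4, its paralogue in motile and epithelial cells, was at 1463 and 1449 CPM with NC, 1750 and 1504 CPM with siFAT1-1 and 659 and 878 CPM with siFAT1-2 in HN6. The HN30 libraries held it at 1236 and 955 CPM with NC, 1120 and 1190 CPM with siFAT1-1 and 602 and 680 CPM with siFAT1-2. Again the siFAT1-2 libraries lay below all others of their line.

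TAGLN2 was at 1106 and 1050 CPM with NC, 1139 and 1011 CPM with siFAT1-1 and 991 and 693 CPM with siFAT1-2 in HN6. HN30 had it at 779 and 640 CPM with NC, 1038 and 988 CPM with siFAT1-1 and 609 and 674 CPM with siFAT1-2. It was high with siFAT1-1 in HN30 alone, and 1 siFAT1-2 library of HN30 lay between the NC libraries.

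Each siRNA was then set against NC with the lines in 1 fit. With siFAT1-2, 3 of the 9 members with a test were called, all lower, beside 11.6% of the 14105 genes tested (7.30% lower). TPM1 fell by 1.29 on the log2 scale (SE 0.211, edgeR adjusted p = 0.00489). ACTN1 fell by 1.21 (SE 0.186, edgeR adjusted p = 0.00356) and ACTN4 fell by 0.85 (SE 0.142, edgeR adjusted p = 0.00536). These 3 calls were kept in 17 of 18 alternative settings and were lost only without the cell line term. With siFAT1-1, 0 of the 9 members were called, beside 3.20% of the genes tested. TPM2 was at 1.08 (SE 0.304, edgeR adjusted p = 0.0777), VASP at 0.60 (SE 0.192, edgeR adjusted p = 0.118) and TPM1 at 0.47 (SE 0.208, edgeR adjusted p = 0.245). The DESeq2 test called TPM2 (adjusted p = 0.00959) and VASP (adjusted p = 0.0414) with siFAT1-1, and edgeR called TPM2 without the second NC library of HN6 (adjusted p = 0.0252). The median log2 change of the 9 members was 0.26 with siFAT1-1 and -0.22 with siFAT1-2, and that of all genes was 0.00 in both. TPM4 is left out of the next counts, since the rule that chose the set fixed its side of NC. All 4 siFAT1-2 libraries lay on one side of NC in both lines for TPM1, ACTN1 and ACTN4, as for 22.3% of genes tested. All 4 siFAT1-1 libraries did so for TPM2 and VASP, as for 20.7%. Both comparisons share the 4 NC libraries.

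**Figure D4:**
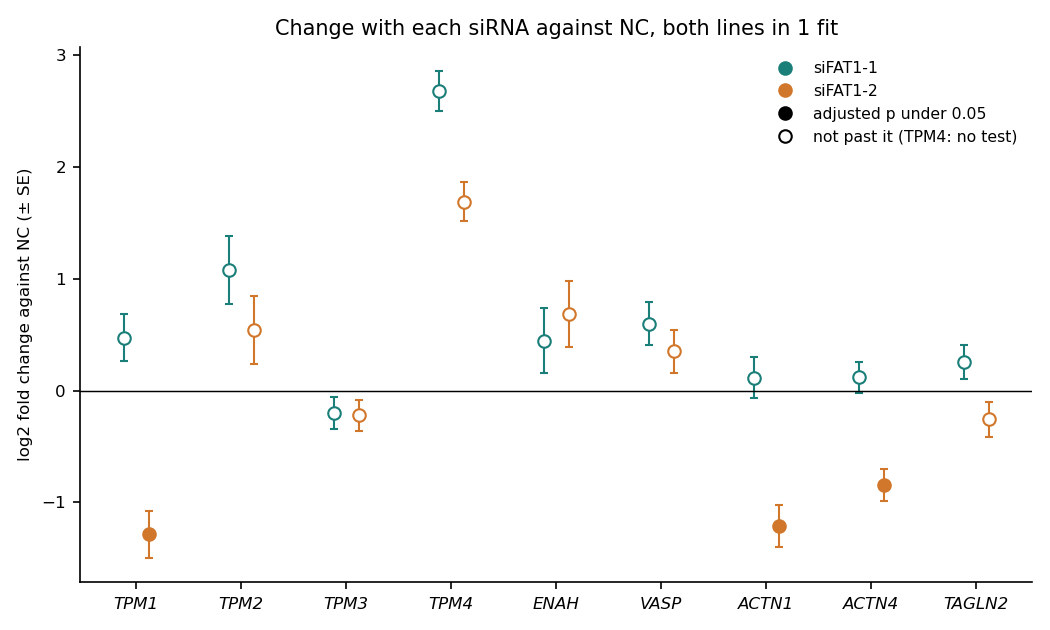
Log2 fold change against NC (y axis) with its SE for each siRNA in a fit of both lines; EVL is left out since it was near 0 in HN6. Filled points passed an edgeR adjusted p under 0.05: TPM1, ACTN1 and ACTN4 with siFAT1-2, at -1.29, -1.21 and -0.85; TPM4 has no test.

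Set directly against each other, the siRNAs differed in 5 of the 10 genes, all higher with siFAT1-1, beside 17.0% of the 14105 genes tested (9.77% higher with siFAT1-1 and 7.25% lower). The count includes TPM4, whose knockdown values are part of the rise that chose the set, so it is not free of that choice. TPM1 differed by 1.76 on the log2 scale (SE 0.214, edgeR adjusted p = 0.000892), ACTN1 by 1.32 (SE 0.186, edgeR adjusted p = 0.00144) and ACTN4 by 0.97 (SE 0.142, edgeR adjusted p = 0.00175). TPM4, given above, was the fourth, and TAGLN2 the fifth at 0.51 (SE 0.156, edgeR adjusted p = 0.0424). In both lines each siFAT1-1 library of these 5 genes lay above each siFAT1-2 library, as it did for TPM2, and 33.7% of all genes tested were separated in 1 direction in both lines. The call of TAGLN2 was lost in 7 of the 12 settings that leave out 1 library, with an edgeR adjusted p of up to 0.134. Those libraries were the first siFAT1-1 and the second siFAT1-2 library of HN6, the first NC library of HN30 and each of its 4 knockdown libraries.

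Differences between the siRNAs were not shown for the other 5 genes. TPM2 was at 0.54 on the log2 scale with an interval of 2 SE from -0.06 to 1.14 (edgeR adjusted p = 0.224). VASP was at 0.25, from -0.13 to 0.63 (edgeR adjusted p = 0.387), and ENAH at -0.24, from -0.82 to 0.34 (edgeR adjusted p = 0.597). TPM3 had the narrowest interval, from -0.26 to 0.30 around 0.02 (edgeR adjusted p = 0.930). EVL had too few counts in HN6 to be placed.

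The 2 lines differed in which paralogues they held. Of the 10 genes, 7 differed between HN30 and HN6, beside 56.9% of the 14105 genes tested. TPM1 was lower in HN30 by 3.33 on the log2 scale and TPM2 by 2.62, while TPM3 and TPM4 did not differ beyond their spread (edgeR adjusted p = 0.215 and 0.564). The fitted differences of TPM1 and TPM2 had edgeR adjusted p of 5.14e-08 and 5.47e-06. ENAH was higher in HN30 by 1.51 (SE 0.244, edgeR adjusted p = 0.00024). EVL was also higher in HN30 (edgeR adjusted p = 4.69e-07), with an NC mean at least 103-fold that of HN6 when the HN6 libraries are set at 3 counts each. VASP did not differ beyond its spread (0.12, interval of 2 SE from -0.19 to 0.43, edgeR adjusted p = 0.527). ACTN1 was lower in HN30 by 1.19 (SE 0.151, edgeR adjusted p = 4e-05), ACTN4 by 0.39 (SE 0.115, edgeR adjusted p = 0.0121) and TAGLN2 by 0.36 (SE 0.128, edgeR adjusted p = 0.0294). In the 4 NC libraries alone the calls of ACTN4 and TAGLN2 were lost (edgeR adjusted p = 0.332 and 0.161). The call of TAGLN2 was also lost without the first NC or the first siFAT1-2 library of HN6, or without the second NC or the first siFAT1-2 library of HN30, with an edgeR adjusted p of up to 0.0653. The values of TPM1, TPM2, ENAH and EVL in the 6 libraries of one line did not overlap those of the other, as for 25.9% of all genes.

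Per kb of exon, the order of levels in HN6 with NC was TAGLN2 (477 ± 17.6 CPM per kb, SD, n = 2), ACTN4 (238 ± 1.65), ACTN1 (151 ± 12.1), TPM3 (45.8), VASP (40.6 ± 5.397), TPM1 (36.6 ± 10.1), TPM2 (32.8 ± 7.27), TPM4 (18.2 ± 1.22), ENAH (2.05 ± 1.13) and EVL (0). VASP, TPM1 and TPM2 overlapped each other, while the others were apart. In HN30 with NC the order was TAGLN2 (314 ± 43.6), ACTN4 (179 ± 32.4), ACTN1 (60.5 ± 12.2), TPM3 (38.5 ± 10.98), VASP (35.3 ± 0.323), TPM4 (11.97 ± 0.590), ENAH (8.38 ± 1.72), TPM1 (3.23 ± 1.33), TPM2 (3.03 ± 1.18) and EVL (0.916 ± 0.107). TPM3 and VASP overlapped there, as did TPM1 and TPM2. The order depends on the length used. With the longest annotated coding transcript, ACTN1 was above ACTN4 in HN6 with NC (595 and 531 against 293 and 290 CPM per kb). TPM1 was then above TPM3 in the same libraries (163 and 110 against 98.2 and 98.2 CPM per kb). After siFAT1-1, TPM4 was at 89.6 and 85.4 CPM per kb in HN6 and at 107 and 101 CPM per kb in HN30, above the other 3 tropomyosins in every library.

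To place the 10 genes, 103 other genes of the actin cytoskeleton in 8 hand-written lists were read from the same fits, and 97 of them passed the filter on low counts. Over all knockdown libraries 1 was called, PXN, and it fell (1.03% of the 97, beside 0.532% of all genes tested). With siFAT1-1 against NC 4 were higher (MYH9, VCL, PALLD and FLNC) and 5 lower (TES, PXN, WASF3, ARPC5L and LIMK1), which is 9.28%, beside 3.20% of all genes. With siFAT1-2 against NC 2 were higher (FYB and WASF1) and 11 lower, which is 13.4%, near the 11.6% of all genes. Of these names, those not described below were chosen after their values were seen. Between the siRNAs 24 were higher with siFAT1-1 and 2 lower, which is 26.8% of the 97, beside 17.0% of all genes tested; 9.77% of all genes were higher with siFAT1-1, against which the counts of each list below are to be read. Between the lines 20 were higher and 33 lower in HN30, which is 54.6%, beside 56.9% of all genes. The median log2 difference between the siRNAs was 0.15 over the lists and -0.02 over all genes tested.

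PXN (paxillin, a scaffold of focal adhesions) was at 864 and 861 CPM with NC, 534 and 467 CPM with siFAT1-1 and 371 and 518 CPM with siFAT1-2 in HN6. In HN30 it was at 736 and 623 CPM with NC, 381 and 425 CPM with siFAT1-1 and 406 and 437 CPM with siFAT1-2. Every knockdown library lay below both NC libraries, and PXN fell by 0.80 on the log2 scale (SE 0.128, edgeR adjusted p = 0.0173). The siRNAs did not differ for it beyond the spread, at 0.05 (SE 0.140, edgeR adjusted p = 0.828). It was called in the pooled comparison, where TPM1, ACTN1 and ACTN4 were not.

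Among the tropomyosin partners, which share filaments with tropomyosin or compete with it, 2 of 11 were higher with siFAT1-1 than with siFAT1-2. CNN2, a calponin, was at 474 and 520 CPM with NC, 798 and 582 CPM with siFAT1-1 and 256 and 320 CPM with siFAT1-2 in HN6. In HN30 the levels were 338 and 453 CPM, 817 and 927 CPM and 414 and 520 CPM in the same order. The difference between the siRNAs was 1.06 on the log2 scale (SE 0.216, edgeR adjusted p = 0.00767). CNN3, a second calponin chosen after its values were seen, was the other. TMOD3, which caps the slow ends of tropomyosin-coated filaments, was at 0.65 after knockdown (SE 0.232, edgeR adjusted p = 0.226).

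Tropomyosin sets the access of the motor nonmuscle myosin II to actin. Among 12 genes of its heavy chains, light chains and regulators, 3 were higher with siFAT1-1 than with siFAT1-2 and none was lower. MYH9, the main heavy chain, was at 3763 and 4490 CPM with NC, 6731 and 4917 CPM with siFAT1-1 and 2771 and 3019 CPM with siFAT1-2 in HN6. The HN30 libraries held it at 1958 and 1628 CPM, 3745 and 4074 CPM and 1649 and 2005 CPM in the same order. It was higher with siFAT1-1 than NC by 0.80 on the log2 scale (SE 0.174, edgeR adjusted p = 0.0273) and higher than with siFAT1-2 by 1.06 (SE 0.174, edgeR adjusted p = 0.00299). The other 2 were MYH14, another heavy chain, and MYL9, a light chain, both named after their values were seen.

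Of 14 Ena/VASP partners, 4 were higher with siFAT1-1 than with siFAT1-2 and none was lower. PFN1 (profilin, which hands actin to Ena/VASP proteins) was at 2864 and 2479 CPM with NC, 2001 and 1711 CPM with siFAT1-1 and 1156 and 1291 CPM with siFAT1-2 in HN6. HN30 had it at 1449 and 1036 CPM, 1081 and 1036 CPM and 715 and 649 CPM in the same order. It fell by 1.00 on the log2 scale with siFAT1-2 against NC (SE 0.144, edgeR adjusted p = 0.00314) and was at -0.38 with siFAT1-1 (SE 0.143, edgeR adjusted p = 0.178). VCL, ZYX and ABI2, named after their values were seen, were the other 3; VCL and ZYX encode the adhesion proteins vinculin and zyxin.

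Of 14 further crosslinkers, 4 were higher with siFAT1-1 than with siFAT1-2 and none was lower. FLNA was among them, as were FLNC and FSCN1, both named after their values were seen. FLNA (filamin A) was at 5715 and 5080 CPM with NC, 4744 and 3873 CPM with siFAT1-1 and 747 and 2752 CPM with siFAT1-2 in HN6. In HN30 it was at 1903 and 1889 CPM, 2924 and 3418 CPM and 838 and 1342 CPM in the same order. The 2 siFAT1-2 libraries of HN6 differed by more than 3-fold. The difference between the siRNAs was 1.43 on the log2 scale (SE 0.349, edgeR adjusted p = 0.0172), and FLNA fell by 1.24 with siFAT1-2 against NC (SE 0.349, edgeR adjusted p = 0.0398).

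The lists of filament nucleation and turnover showed both directions. Between the siRNAs 6 of 22 nucleation genes were higher with siFAT1-1 and 1 lower (WASF3). Of 17 turnover and capping genes, 4 were higher (TESK1, SSH3, DSTN and SSH1) and 1 lower (LIMK1), all named after their values were seen. Their medians were -0.01 and -0.02 on the log2 scale, beside -0.02 over all genes tested. ARPC5L, a subunit of the Arp2/3 complex, fell by 0.82 with siFAT1-1 against NC (SE 0.180, edgeR adjusted p = 0.0296). Of 4 actins tested none was called after knockdown or between the siRNAs; ACTB, the main nonmuscle actin, was at -0.61 after knockdown (SE 0.203, edgeR adjusted p = 0.2001). ACTB was at 8877 and 6747 CPM with NC against 3192 to 4030 CPM after knockdown in HN6, and at 7718 and 7435 CPM against 5875 to 8962 CPM in HN30.

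Of the transcription factor SRF and its actin-sensing partners MKL1 and MKL2, SRF was called between the siRNAs. It was at 86.8 and 101 CPM with NC, 114 and 94.8 CPM with siFAT1-1 and 33.9 and 52.5 CPM with siFAT1-2 in HN6. In HN30 the levels were 58.8 and 70.2 CPM, 72.8 and 85.8 CPM and 48.0 and 59.7 CPM in the same order. The difference was 0.89 on the log2 scale (SE 0.216, edgeR adjusted p = 0.0169), and SRF, named after its values were seen, was at -0.68 with siFAT1-2 against NC (SE 0.215, edgeR adjusted p = 0.0621).

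**Figure D5:**
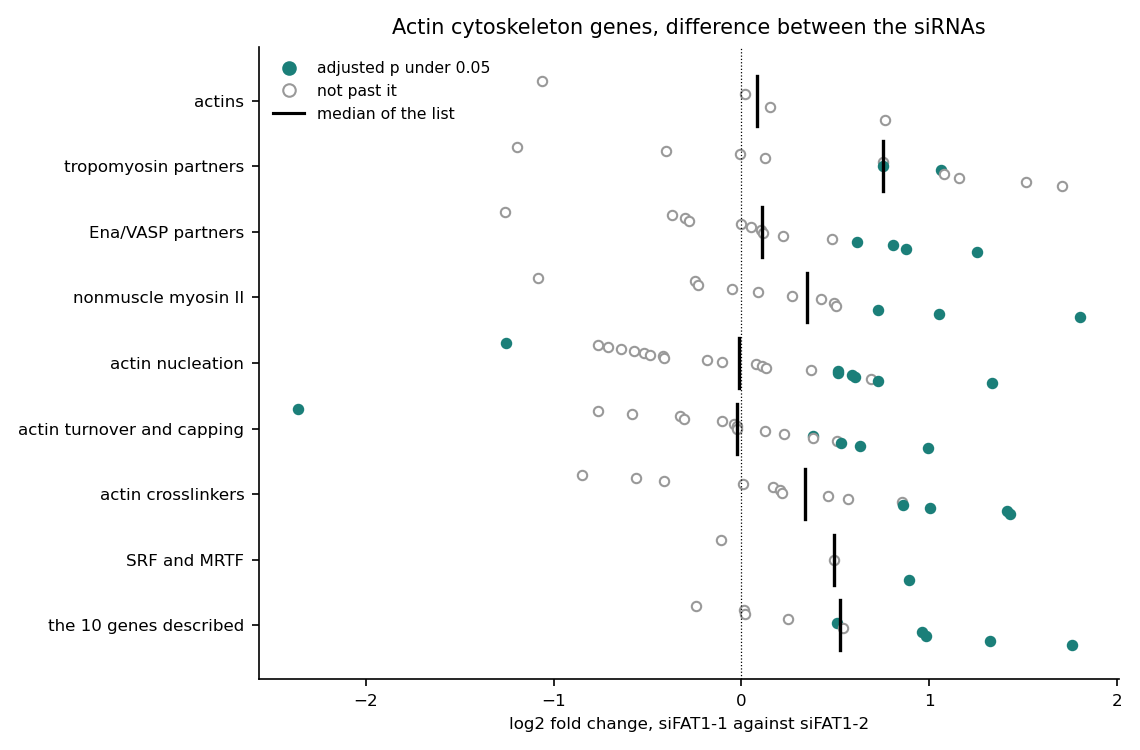
Log2 fold change of siFAT1-1 against siFAT1-2 (x axis) for the genes of each list and for the 10 genes described, 1 point a gene, with the list median as a bar. Filled points passed an edgeR adjusted p under 0.05: 24 of the 97 listed genes on the right and 2 on the left, and 5 of the 10 genes described.

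The genes whose pattern over the 12 libraries was most like that of TPM4 were looked up on log2 CPM centred on the mean of each line. Among the 5 with the highest Pearson r, SDC4, a heparan sulfate proteoglycan of focal adhesions, was at 0.95. PCNX3 was at 0.94, AK7 at 0.93 and ZFYVE21 at 0.93. AK7 was low, with a mean of 0.72 CPM in the NC libraries. SDC4 was at 2.59 times NC with siFAT1-1 and 1.63 times with siFAT1-2. Among the members TPM2 was the most alike (r = 0.82, rank 101 of 14104 genes), followed by VASP (r = 0.77, rank 215), while TPM3 had r = -0.48 and TPM1 r = 0.14. Without centring, 2 of the 5 most alike genes were shared. These r are a description over libraries that share siRNAs and lines.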

How the data were processed

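The authors transfected HN6 and HN30 cells with each siRNA, sequenced poly(A) libraries as paired reads, filtered out reads that were duplicated, of low quality or held poly-N, and mapped the rest to hg38. The submitters' processing notes name HISAT2 and featureCounts, with no versions. The deposited values are raw whole-number counts per gene symbol, without normalization; neither the annotation nor whether strand was used is given in the sources used here. The labels call the knockdown groups FAT1-sh1 and FAT1-sh2, their descriptions siRNAs. The table held 19225 entries (27 symbols turned into dates), and 0 columns of sample values were left out.

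The 10 genes, the 8 lists of 103 genes, which were written by hand from general knowledge, and the tests were chosen with earlier results of these data known. Counts were fitted with edgeR 4.0.16 (TMM, factors 0.897 to 1.06, filterByExpr with a minimum count of 10, glmQLFit, glmQLFTest, prior count 0.125 for fold changes and 2 for log2 CPM) in R 4.3.3, with Benjamini-Hochberg adjustment over all genes tested and a threshold of 0.05. CPM are TMM-scaled. Fits of both lines had cell line as a term. Levels per kb use the joined exons of GENCODE 44; 18205 symbols matched directly and 663 through an older symbol. Ratios of paralogues used counts plus 0.5 and a two-sided exact permutation test within lines. Alternatives were DESeq2 size factors, DESeq2 1.42.0, limma-voom (limma 3.58.1), no filter, no cell line term, the replicate block, and each library left out, where the lone library of a group is assumed to vary like the others. The steps were tested on simulated data. Summaries used pandas 2.3.3 and numpy 2.4.6, and figures matplotlib 3.10.9, in Python 3.11.15.

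Named genes were the 10 members, FAT1, the 5 genes with the highest r to TPM4, and, in each list, the gene with the smallest p for knockdown against NC and the most abundant gene. Some genes that this rule or a count would name are not reported here. The lists were actins, tropomyosin partners, Ena/VASP partners, nonmuscle myosin II, actin nucleation, actin turnover and capping, actin crosslinkers, and SRF with its partners.

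The design text says that the repeat was done at a separate time, so repeat numbers pair the libraries within a line. Taken as deviations from the group mean, libraries with the same number correlated across genes at 0.0747, 0.217 and 0.233 in HN6 and at -0.0293, 0.401 and -0.0203 in HN30. The limit that a count of 0 allows covers counting error only, while the intervals of 2 SE come from the fits and include the spread between libraries.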

Additional observations from a re-analysis of the deposited data

How the results depend on the processing

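Of 1065 values recomputed for 64 results, 995 were unchanged in direction and call, 12 turned direction, 27 lost a call and 5 gained one. The other 26 were rises of TPM4, which have no test, and these moved in size but kept their direction. The replicate block, which pairs libraries of the same repeat, moved the genes called for knockdown against NC from 75 to 44 and left no ratio of paralogues called (0 of 5, with TPM2 to TPM3 at an adjusted exact p of 0.0617, the smallest that its 81 arrangements allow); it changed no other call of the 10 genes. The DESeq2 test called 1 of the 10 genes within HN30 and 2 for siFAT1-1 against NC, and 639 genes for knockdown against NC, 1208 for siFAT1-1 (452 with edgeR) and 2696 for siFAT1-2 (1635 with edgeR). Without the cell line term, 0 of 3 calls remained for siFAT1-2 against NC and 2 of 5 between the siRNAs, and the genes called were 4, 28, 61 and 286 for knockdown, siFAT1-1, siFAT1-2 and the difference between siRNAs. With the NC libraries alone 1562 genes differed between the lines, in place of 8023, and VASP was at -0.19. For knockdown against NC, TAGLN2 was at -0.002018 with limma-voom and at -0.001702 without the cell line term, beside 0.02.

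With 1 library left out, 0 to 1 of the 10 genes were called for siFAT1-1 against NC, 4 to 5 between the siRNAs and 0 to 2 ratios (the second, EVL to VASP at -0.75 without the second siFAT1-2 library of HN6, then rests on no EVL counts in that line and is void). Genes called for knockdown against NC were 4 to 61, with 4 without the first NC library of HN30 and 16 without the first NC library of HN6. For siFAT1-1 they were 113 to 666, for siFAT1-2 678 to 1674 and between the siRNAs 994 to 3333. Directions of changes near 0 turned: TAGLN2 from -0.08088 to 0.09474 and TPM1 from -0.3312 to 0.002341 for knockdown against NC, TPM3 from -0.01833 to 0.05938 between the siRNAs, TPM1 to TPM3 from -0.3448 to 0.03542 and ENAH to VASP from -0.2026 to 0.5239. The causes were not tested. Depth limits EVL in HN6 alone among the 10 genes; for the others the spread between 2 libraries a group sets the precision.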
